A study of Mus musculus with 5 samples.

Results

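Pleiotrophin and midkine are the 2 members of a family of secreted, heparin-binding growth factors, and their genes *Ptn* and *Mdk* were followed here together with 5 genes for receptors reported for them, *Ptprz1*, *Ptprs*, *Alk*, *Lrp1* and *Ncl*. These 7 genes were chosen by name, as the ligands and their reported receptors, from the 21835 genes of the deposited table. The rule used no measured value, but the genes were picked with earlier results of these data known, in which *Ptn* was already seen to be lower. All 7 were in the table, and 4 of them (*Ptn*, *Ptprs*, *Lrp1* and *Ncl*) were expressed highly enough to be tested among 12175 genes. *Mdk* was below that level, and *Ptprz1* and *Alk* were listed at 0 in all samples.

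The study sequenced mRNA of murine lung cancer-associated fibroblasts (CAFs) to ask what the miR-200 family changes in them. The control group, CAF-vec (2 samples, genotype label WT control), was described in the methods as CAFs transduced with the vector alone. CAF-200 (3 samples, genotype label miR-200 overexpression) carried a lentivirus for the clustered miR-200b, miR-429 and miR-200a, and the labels give selection with G418 after infection. Both groups were cultured fibroblasts labelled as 1 cell line, CAF, from lung, and neither the labels nor the methods give the strain, age or number of the mice behind it. The labels do not say that the samples of a group came from separate cultures, so the *p* values measure only the spread between these samples, which may be technical.

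Pleiotrophin and midkine bind the sulphated sugar chains of proteoglycans, heparan sulphate and chondroitin sulphate, and these chains help to present them to their receptors. The receptor tyrosine phosphatase PTPRZ, itself a chondroitin sulphate proteoglycan, loses activity when pleiotrophin binds it, which leaves substrates such as FYN and β-catenin more phosphorylated. The receptor tyrosine kinase ALK, the endocytic receptor LRP1 and nucleolin, a nucleolar protein that also reaches the cell surface, have been described as further receptors, and both growth factors are known for promoting cell growth, migration and angiogenesis in tumors.

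The overexpressed miRs pair with mRNAs through the seed, bases 2 to 8 of the mature sequence, and the mature forms are shown because their seeds decide which 3′-UTR letters were searched for. They are given 5′ to 3′ from RefSeq, with the seed in capitals, and all 3 lie on the minus strand of chromosome 4 of GRCm38.p6.
mmu-miR-200b-3p: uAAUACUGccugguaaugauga
mmu-miR-429-3p: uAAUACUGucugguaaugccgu
mmu-miR-200a-3p: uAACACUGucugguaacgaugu
miR-200b and miR-429 share a seed and pair with CAGTATT in the mRNA strand of a 3′-UTR, whereas miR-200a pairs with CAGTGTT. In the longest annotated coding 3′-UTR of each gene (GENCODE M21, mRNA strand only), none of the 4 tested members held either heptamer, and *Ptprz1* was the 1 member of 7 that did. For comparison, CAGTATT was in the longest 3′-UTR of 15.7% of 12060 tested genes, CAGTGTT in 20.9%, and at least 1 of the heptamers in 30.3%. *Ptn* has 2 annotated coding 3′-UTRs, of 778 and 1799 bases, and neither heptamer was in them. *Lrp1* had CAGTATT in 1 of its 3 coding transcripts, at chr10:127538788-127538794 on the minus strand (GRCm38). That site is shown with its neighbouring bases and with the heptamer in capitals, since *Lrp1* is the only expressed member with a match in any coding transcript.
Lrp1 3′-UTR match: gcaagcgagcaagcaCAGTATTatctc
Such a match is a description of the sequence only.

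The values are the authors' CPM, that is, counts as a share of the library, with columns of equal sum. The scale of every fold-change is log2(CPM + 0.5), which understates the changes of low genes, and the adjusted *p* values were computed with limma and the Benjamini-Hochberg method across the whole set of tested genes. A gene was called lower or higher in CAF-200 when the adjusted *p* was under 0.01 and the log2 fold-change beyond 1. The CAF-vec samples stood further apart than the CAF-200 samples, with an SD of the log2 difference across genes of 0.490 against 0.192 to 0.204. As a check of the labels, *Zeb1*, which encodes a transcriptional repressor long known as a miR-200 target, was 43.5 and 50.7 CPM in CAF-vec and 37.8, 37.5 and 34.1 CPM in CAF-200. The CAF-200 samples lay below both CAF-vec samples, with a log2 fold-change of -0.36 (limma, adjusted *p* = 0.0504). *Zeb2* had a log2 fold-change of -0.23 (limma, adjusted *p* = 0.374), which became 0.083 without CAF-vec 1 and -0.54 without CAF-vec 2 (adjusted *p* = 3.77e-04, limma). For *Zeb1* the log2 fold-change was -0.47 without CAF-vec 1 (adjusted *p* = 0.00301, limma) and -0.25 without CAF-vec 2 (adjusted *p* = 0.0308, limma), and its adjusted *p* was 0.134 to 0.183 with 1 CAF-200 sample left out. Levels of the miRs themselves were not measured in these mRNA libraries.

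The cell type was checked by marker lists. Fibroblast markers were abundant, and their summed level ranged over 7457 to 14148 CPM (CAF-vec) and 6609 to 7302 CPM (CAF-200). Nearly all of the sum was *Col1a1*, *Col1a2* and *Vim*, with log2 fold-changes of -0.91, -0.75 and -0.39 that did not reach an adjusted *p* of 0.05. Of the 9 tested markers, 5 had a negative and 4 a positive log2 fold-change, *Dcn*, *Lum* and *Thy1* were higher in CAF-200 past both thresholds, and *Fap* was too low to test. The 5 epithelial markers summed to at most 0.421 CPM and the 5 endothelial markers to at most 1.06 CPM in any sample, and *Krt18* and *Tie1* were listed at 0. The 5 immune markers summed to 4.72 to 7.32 CPM, nearly all of it *Cd68* (2.25 to 5.01 CPM) and *Csf1r* (2.29 to 4.97 CPM), while *Adgre1* and *Cd3e* were listed at 0 and *Ptprc* was at most 0.0404 CPM. In bulk samples, fewer cells of a kind and less RNA per cell cannot be told apart.

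*Ptn* was the only member that changed past both thresholds, and it was lower in CAF-200. Of the 4 tested members 1 was lower and 0 were higher past both thresholds in limma, and 2 and 0 at an unadjusted *p* under 0.05, against 27.6% and 17.3% of all genes tested. Over all genes tested, 2.35% were lower and 2.37% higher by the same rule, together 4.72%. The CAF-200 samples lay below both CAF-vec samples for *Ptn* and *Ptprs*, which held for 37.3% of all genes tested, and the groups overlapped for *Lrp1*, *Ncl* and *Mdk*.

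*Ptn* (ENSMUSG00000029838, chromosome 6 of GRCm38, 36714929 to 36810220, minus strand) was at 1601 and 1246 CPM in CAF-vec and at 203, 198 and 178 CPM in CAF-200. The groups were far apart, and the lower CAF-vec sample was still several times the highest CAF-200 sample. The CAF-vec samples differed from each other by 0.36 on the log2 scale and the CAF-200 samples spanned 0.19. The mean level was 1424 ± 251 CPM (SD, n = 2) without and 193 ± 13.2 CPM (SD, n = 3) with the cluster, so that CAF-vec was 7.36 times CAF-200. The log2 fold-change was -2.87 with a 95% confidence interval of -3.22 to -2.52 (limma, adjusted *p* = 9.29e-04). Only 7 tested genes had a lower fold-change, so *Ptn* stood at rank 8 from the lowest.

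The fold-change of *Ptn* kept its size with each sample left out in turn, between -3.05 and -2.69. Its adjusted *p* stayed under 0.01 with either CAF-vec sample left out, and without CAF-200 1, 2 or 3 it was 0.0148, 0.0132 and 0.0155 (limma). Of 5 markers of mesothelial cells, the lining cells of the lung surface, *Msln* alone was expressed highly enough to be tested, and it was lower in CAF-200 as well. The summed level of the 5 in CPM was 5.99 to 7.15 (CAF-vec) against 1.26 to 1.90 (CAF-200), and *Msln* made up most of it (log2 fold-change -1.97, limma, adjusted *p* = 0.0029), while *Lrrn4* was listed at 0, *Upk3b* and *Wt1* were at most 0.209 CPM, and *Krt19* was at most 0.169 CPM in CAF-vec and 0.41 CPM in CAF-200. Glial markers summed to 3.27 to 4.55 CPM (CAF-vec) and 2.37 to 2.84 CPM (CAF-200), with *Sox10* listed at 0. The part of these cells in the *Ptn* result was not tested.

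**Figure D1:**
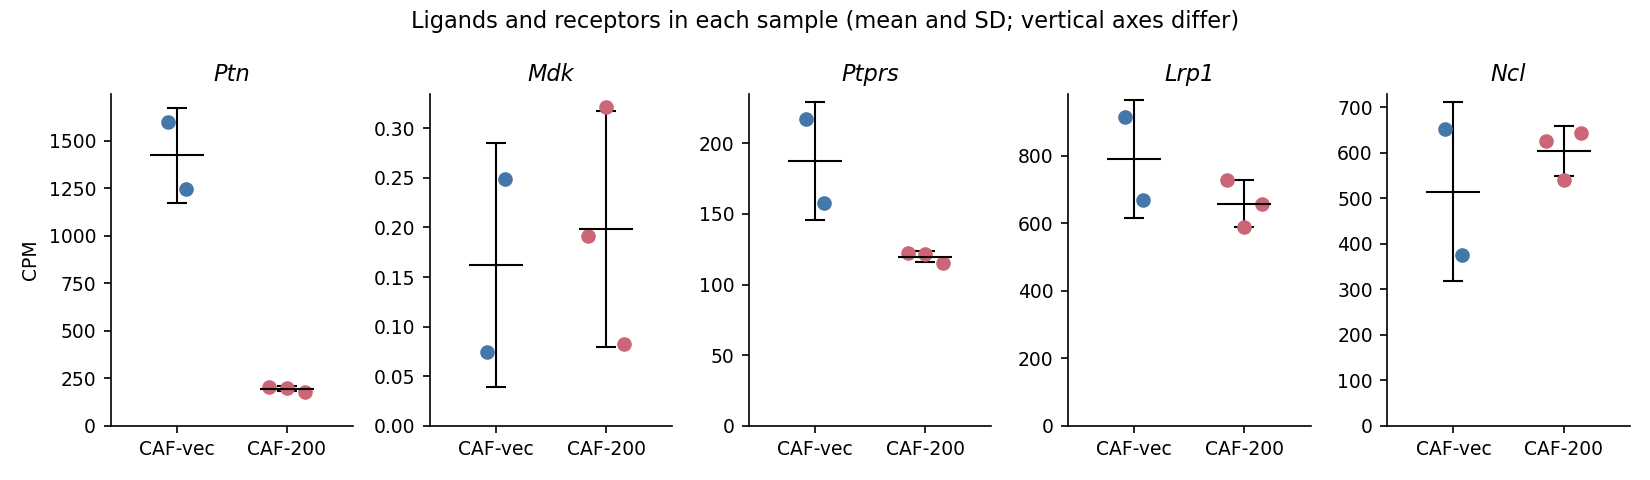
CPM of the 5 members with a value above 0, in the 2 CAF-vec samples (blue) and the 3 CAF-200 samples (red), with the mean and SD of each group in black; each vertical axis starts at 0 and has its own scale. *Ptn* separates the groups (1246 to 1601 CPM against 178 to 203 CPM), *Ptprs* separates them by less, and the groups overlap for *Mdk*, *Lrp1* and *Ncl*; *Ptprz1* and *Alk* were listed at 0 and are not drawn.

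*Mdk* (ENSMUSG00000027239, chromosome 2, 91929805 to 91932297, minus strand), which encodes midkine, was at 0.0747 and 0.249 CPM in CAF-vec and at 0.191, 0.321 and 0.0829 CPM in CAF-200. The groups overlapped, and all 5 values were below the 0.5 CPM needed for testing. The difference on log2(CPM + 0.5) was 0.076, and it lay between 0.044 and 0.19 with another pseudocount. With no filter on low values it could be tested and had an adjusted *p* of 0.796 (limma). The depth of the samples is unknown, so no interval for counting error can be given for such low values.

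The balance of the ligands was also given as a ratio. The log2 ratio of *Ptn* to *Mdk*, with 0.5 CPM added to each, was 11.44 and 10.70 in CAF-vec and 8.20, 7.92 and 8.26 in CAF-200. All 3 CAF-200 samples were below both CAF-vec samples, with a mean difference of -2.94. A two-sided exact permutation test, which doubles the smaller one-sided *p*, gave *p* = 0.2. That is the smallest value this form of the test can give with the 10 splits of 2 against 3 samples. Since the added 0.5 CPM exceeds every *Mdk* value, the size of this ratio is set in part by it.

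Of the receptors, *Ptprz1* (ENSMUSG00000068748, chromosome 6, 22875502 to 23052916, plus strand), which encodes the phosphatase regarded as the classical pleiotrophin receptor, was listed at 0 in all 5 samples. *Alk* (ENSMUSG00000055471, chromosome 17, 71868972 to 72604627, minus strand), the receptor tyrosine kinase gene, was likewise listed at 0 in all 5. They share this with 5791 genes of the table, and no fold-change can be given for either. Of 79 cytosolic ribosomal protein genes, which cells use throughout, 2 were listed at 0, namely the paralogs *Rpl39l* and *Rpl10l*.

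*Ptprs* (ENSMUSG00000013236, chromosome 17, 56412426 to 56476483, minus strand) encodes the receptor phosphatase PTPσ, which binds chondroitin sulphate and heparan sulphate proteoglycans. It was at 217.3 and 157.8 CPM in CAF-vec and at 122.3, 121.5 and 115.1 CPM in CAF-200. The CAF-200 samples were close to each other and below both CAF-vec samples, which differed by 0.46 on the log2 scale. The CAF-vec mean was 188 ± 42.1 CPM (SD, n = 2), and that of CAF-200 was 119.6 ± 3.96 CPM (SD, n = 3). The log2 fold-change was -0.63 with a 95% confidence interval of -0.997 to -0.26 (limma, adjusted *p* = 0.0277), and neither threshold was passed. At an adjusted *p* under 0.05 *Ptprs* was 1 of 2 lower members, against 18.6% of all genes tested. Without CAF-vec 1 its log2 fold-change was -0.40 (limma, adjusted *p* = 0.00247), and without CAF-vec 2 it was -0.86 (limma, adjusted *p* = 3.42e-05). Without CAF-200 1, 2 or 3 the adjusted *p* was 0.0922, 0.0985 and 0.116 (limma), above 0.05. With a CAF-vec sample left out, the lone CAF-vec sample is assumed to vary like the CAF-200 samples, which were the more alike.

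*Lrp1* (ENSMUSG00000040249, chromosome 10, 127538161 to 127621148, minus strand), the large endocytic receptor of many extracellular ligands, was at 914 and 667 CPM in CAF-vec and at 728, 588 and 657 CPM in CAF-200. CAF-vec 1 was the highest sample, and CAF-vec 2 lay among the CAF-200 samples. The log2 fold-change was -0.25 with a 95% confidence interval of -0.69 to 0.18 (limma, adjusted *p* = 0.308), an interval that holds both a fall and a rise. Without CAF-vec 1 it was -0.026 (limma, adjusted *p* = 0.865), and without CAF-vec 2 it was -0.48 (limma, adjusted *p* = 0.00664). An antisense gene, *Gm16217*, overlaps *Lrp1* in the annotation and has no row in the table.

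*Ncl* (ENSMUSG00000026234, chromosome 1, 86344719 to 86359400, minus strand) encodes nucleolin, which works mainly in ribosome production in the nucleolus. It was at 654 and 376 CPM in CAF-vec and at 627, 540.3 and 643 CPM in CAF-200. The CAF-vec samples were the highest and the lowest of the 5, with all CAF-200 samples between them. The log2 fold-change was 0.28 with a 95% confidence interval of -0.33 to 0.88 (limma, adjusted *p* = 0.412). Its sign depended on the CAF-vec sample used, since it was -0.12 without CAF-vec 2 (limma, adjusted *p* = 0.337) and 0.68 without CAF-vec 1 (limma, adjusted *p* = 0.00142). Small nucleolar RNA genes, among them *Snord82* and *Snora75*, lie within *Ncl* on the same strand and have no rows in the table.

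**Figure D2:**
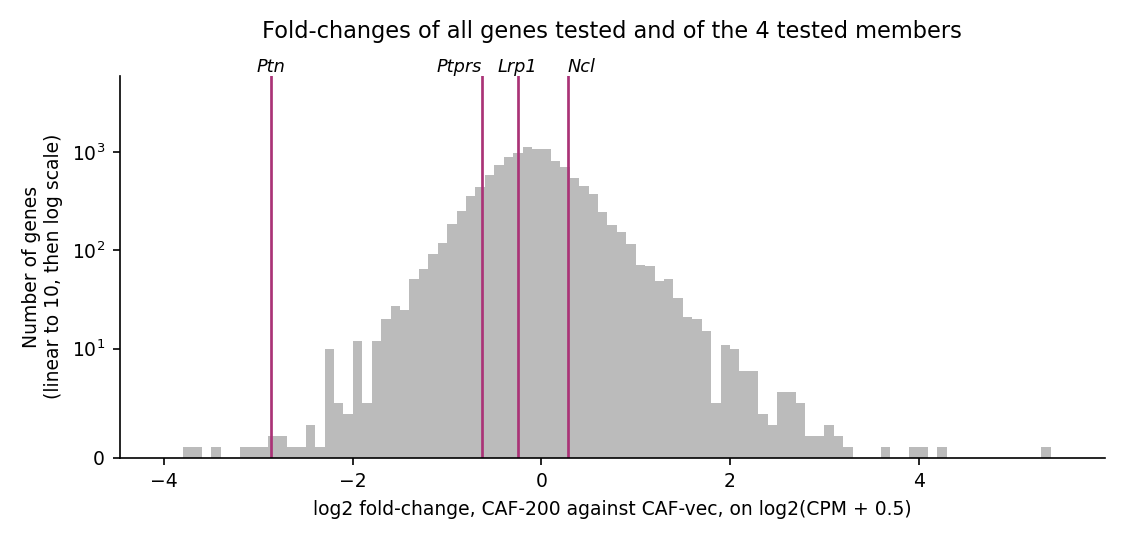
Number of genes by log2 fold-change (CAF-200 against CAF-vec, bins of 0.1, vertical axis linear to 10 and logarithmic above) for all 12175 genes tested, with the 4 tested members as vertical lines. *Ptn* lies at -2.87, at the far left of the distribution, while *Ptprs* (-0.63), *Lrp1* (-0.25) and *Ncl* (0.28) lie within its bulk.

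Levels of different genes were compared per length, as CPM per kilobase (kb) of the union of annotated exons. In CAF-vec the order was *Ptn*, *Ncl*, *Lrp1*, *Ptprs*, *Mdk*. On this scale *Ptn* was at 363 to 466 CPM per kb, *Ncl* at 36.9 to 64.2, *Lrp1* at 37.6 to 51.6, *Ptprs* at 10.5 to 14.5 and *Mdk* at 0.0565 to 0.188. *Ncl* and *Lrp1* overlapped and could not be ordered beyond their spread, while the other neighbours did not overlap. In CAF-200 *Ncl* was at 53.0 to 63.2 CPM per kb and *Ptn* at 52.0 to 59.2, so the ligand, the highest of the 7 genes in CAF-vec, overlapped with *Ncl*. *Lrp1* followed at 33.2 to 41.1 CPM per kb, *Ptprs* at 7.68 to 8.16 and *Mdk* at 0.0626 to 0.243. The union of exons of *Ncl* is 10.19 kb and includes an annotated 3′-UTR of 5901 bases, so its level per kb rests on that annotation.

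**Figure D3:**
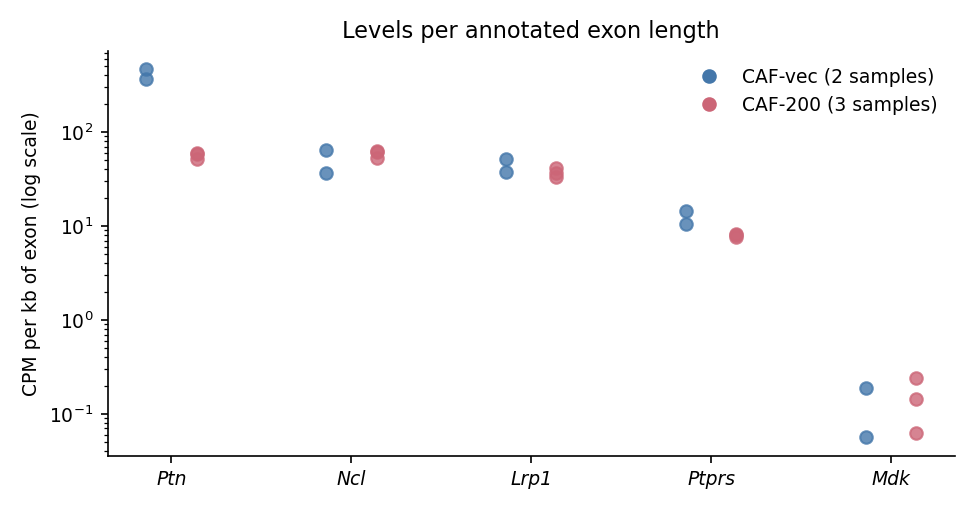
CPM per kb of annotated exon (logarithmic axis) for each CAF-vec sample (blue) and CAF-200 sample (red), for the 5 members with a value above 0. *Ptn* lies above the other members in CAF-vec (363 to 466) and beside *Ncl* in CAF-200 (52.0 to 59.2 against 53.0 to 63.2), and *Mdk* is lowest in both groups.

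The genes whose pattern over the 5 samples was most like that of *Ptn* were sought by Euclidean distance between mean-centred log2(CPM + 0.5) values, among 8759 tested genes with a mean of at least 10 CPM. The nearest was *Map3k7cl* (distance 0.283), at 23.4 and 21.2 CPM in CAF-vec and 2.61, 3.26 and 2.58 CPM in CAF-200. *Plin4* (0.346) encodes a perilipin of lipid droplets and was at 130 and 105 CPM in CAF-vec and 13.5, 15.2 and 10.9 CPM in CAF-200. *Rspo2* (0.367), whose product R-spondin 2 is a secreted, heparin-binding enhancer of Wnt signaling, was at 87.1 and 91.5 CPM in CAF-vec and 12.9, 14.4 and 11.9 CPM in CAF-200. *Peli2* (0.407) encodes a ubiquitin ligase and *Gpnmb* (0.536) a transmembrane glycoprotein. The log2 fold-changes of the 5 genes were between -3.11 and -2.47. Nearness here mainly means a fall of like size, and the measure rests on 5 samples. *Plin4* overlaps *Hdgfl2* on the other strand, so its reads could be shared.

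For *Mdk* the nearest genes were *Bst2* (distance 0.144), *Naa38*, *Mcee*, *Pts* and *4931406P16Rik* (0.182), with log2 fold-changes between -0.013 and 0.068. All of them were nearly level across the groups, and for *Mdk* the added 0.5 CPM, larger than each of its values, narrows the differences on this scale.

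**Figure D4:**
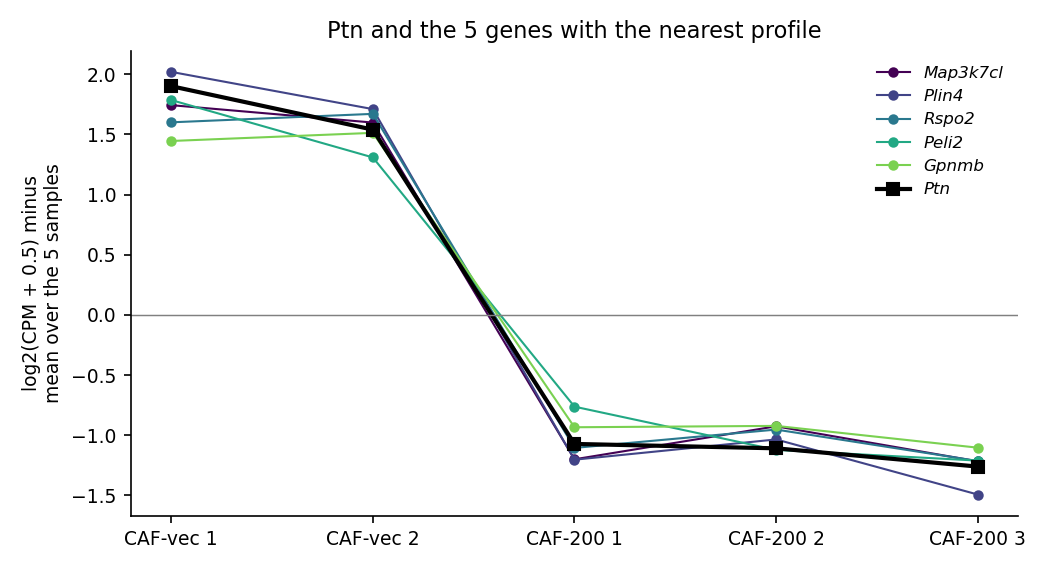
log2(CPM + 0.5) of *Ptn* (black squares) and of the 5 genes with the nearest profile (colored circles) in each of the 5 samples, after subtracting each gene's mean over the samples; lines join the values of 1 gene and imply no order of samples. All 6 genes lie above 0 in both CAF-vec samples and below 0 in the 3 CAF-200 samples, with *Ptn* at 1.90 and 1.54 against -1.07, -1.11 and -1.26.

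The genes around the ligands and receptors were taken as 4 lists, with 92 genes in all, of which 75 were expressed highly enough to be tested. At an adjusted *p* under 0.01, 5 were lower and 7 higher in CAF-200, or 6.67% and 9.33%, against 5.57% and 4.45% of all genes tested (limma). Past the fold-change threshold as well, 0 were lower and 5 were higher, against 2.35% and 2.37% of all genes tested. The 5 were *Itga6*, *Sulf1*, *Chst11*, *Hs6st2* and *Vcan*. At an unadjusted *p* under 0.05, 24 of the list genes were lower and 20 higher, against 27.6% and 17.3% of all genes tested. Their median log2 fold-change was -0.064, beside -0.094 for all genes tested, but it was above 0 under both other scalings (0.039 with quantile normalization, beside -0.016, and 0.033 with centring by sample medians, beside 0.0027). With any 1 CAF-200 sample left out, none of these 12 genes kept an adjusted *p* under 0.01 (0.0187 to 0.0554, limma), although all 12 kept their direction and moved by at most 0.15 on the log2 scale. With no filter on low values 8 of the 12 had an adjusted *p* above 0.01 (0.0111 to 0.0191, limma), among them all 5 that were lower.

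Among 23 other receptors, partners and ligands of these receptors, 17 were tested, with a median log2 fold-change of -0.013, which became 0.088 with quantile normalization and 0.083 with centring. *Itga6*, the integrin α6 gene, was the only one past both thresholds. It was at 1.21 and 1.15 CPM in CAF-vec and at 3.39, 2.62 and 4.06 CPM in CAF-200, all higher than in CAF-vec, but low throughout (log2 fold-change 1.18, limma, adjusted *p* = 0.00949). The call was lost with a pseudocount of 1 (log2 fold-change 0.98, limma, adjusted *p* = 0.0104) and with no filter on low values (limma, adjusted *p* = 0.0165). At an adjusted *p* under 0.05, 2 were lower and 5 higher, against 18.6% and 11.9% of all genes tested, and those besides *Itga6* were chosen for naming after their values were seen. *Nrp1*, for neuropilin 1, was at 520.4 and 466 CPM in CAF-vec and at 360.5, 363 and 368 CPM in CAF-200 (log2 fold-change -0.44), and *Lrp6*, for a Wnt co-receptor of the LRP family, had a log2 fold-change of -0.47. The heparan sulphate carriers *Sdc1* and *Sdc2*, for syndecans 1 and 2, had log2 fold-changes of 0.81 (1.11 without CAF-vec 1, 0.51 without CAF-vec 2) and 0.55, and the integrin genes *Itgb1* and *Itgb3* of 0.55 and 0.85. For these 6 genes the adjusted *p* was between 0.0154 and 0.0327 (limma). With any 1 CAF-200 sample left out it was above 0.05 for all 6 (0.0533 to 0.121, limma).

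The other genes tied to ALK were few. Its ligand gene *Alkal2* was listed at 0 in all samples and the related kinase gene *Ltk* was at most 0.0282 CPM. *Alkal1*, the other ALK ligand gene, was at 8.29 and 12.6 CPM in CAF-vec and at 17.2, 17.2 and 14.4 CPM in CAF-200. All CAF-200 samples were above the CAF-vec samples (log2 fold-change 0.64, limma, adjusted *p* = 0.0542), and the fold-change was 0.35 without CAF-vec 1 and 0.93 without CAF-vec 2 (limma, adjusted *p* = 3.69e-04). The phosphatase genes related to *Ptprs* were *Ptprf*, with a log2 fold-change of -0.28 (limma, adjusted *p* = 0.0508), and *Ptprd*, which was at most 0.248 CPM.

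Of 20 signaling genes, 19 were tested, with a median log2 fold-change of -0.15, which became -0.072 with quantile normalization and -0.052 with centring. *Fyn*, the gene of a SRC-family kinase that PTPRZ acts on, was at 54.6 and 51.2 CPM in CAF-vec and at 36.5, 33.7 and 33.0 CPM in CAF-200. The groups did not overlap, and the log2 fold-change of -0.61 (standard error 0.0904, limma, adjusted *p* = 0.00801) was past the threshold for the adjusted *p* and short of the one for fold-change. At an adjusted *p* under 0.05, 4 were lower and 1 higher, against 18.6% and 11.9% of all genes tested, and those besides *Fyn* were chosen for naming after their values were seen. Of the adducin genes, *Add2* was at most 0.0693 CPM and was not tested. *Add1* and *Add3* had log2 fold-changes of -0.75 (-1.10 without CAF-vec 2, -0.40 without CAF-vec 1) and -0.37, *Pxn*, for paxillin, of -0.30, and *Ptk2*, for focal adhesion kinase, of 0.44. Their adjusted *p* lay between 0.0255 and 0.0419, and between 0.0881 and 0.158 with any 1 CAF-200 sample left out (limma). For *Add3* and *Pxn* it was also above 0.05 with quantile normalization (0.0566 and 0.10) and with centring by sample medians (0.0559 and 0.0952), and for *Add1* with no filter on low values (0.0658). *Ctnnb1*, for β-catenin, was at 382 and 371 CPM in CAF-vec and at 341, 331 and 354 CPM in CAF-200 (log2 fold-change -0.14, limma, adjusted *p* = 0.281).

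Glycosaminoglycan synthesis, which makes the sulphated chains that both growth factors bind, had 33 tested genes of 37, with 3 lower and 5 higher at an adjusted *p* under 0.01 (9.09% and 15.2%, against 5.57% and 4.45% of all genes tested) and a median log2 fold-change of -0.075, which became 0.037 with quantile normalization and 0.022 with centring. At an adjusted *p* under 0.05, 7 were lower and 8 higher, against 18.6% and 11.9% of all genes tested. The 7 of them that were not under 0.01 were all above 0.05 with any 1 CAF-200 sample left out (0.0519 to 0.113, limma). *Sulf1* encodes an extracellular sulphatase that removes 6-O-sulphate from heparan sulphate, and of the list it had the largest log2 fold-change. It was at 3.81 and 5.29 CPM in CAF-vec and at 24.8, 25.3 and 24.4 CPM in CAF-200, a mean of 5.46 times CAF-vec (log2 fold-change 2.34, standard error 0.144, limma, adjusted *p* = 0.00145). *Hs6st2*, for a heparan sulphate 6-O-sulphotransferase, which adds the group that *Sulf1* removes, also rose, from 34.9 and 24.8 CPM to 61.6, 65.1 and 60.2 CPM (log2 fold-change 1.07, limma, adjusted *p* = 0.00771), and without CAF-vec 2 its log2 fold-change was 0.83, short of the fold-change threshold. *Ext1*, for a polymerase of the heparan sulphate chain, was at 85.4 and 75.0 CPM in CAF-vec and at 139, 138 and 146 CPM in CAF-200 (log2 fold-change 0.81, limma, adjusted *p* = 0.00474). *Ndst2*, for an enzyme of heparan sulphate N-sulphation, went the other way, with 14.9 and 16.3 CPM in CAF-vec and 9.04, 8.13 and 7.69 CPM in CAF-200 (log2 fold-change -0.88, limma, adjusted *p* = 0.00569).

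On the chondroitin side, *Chst11*, for a chondroitin 4-O-sulphotransferase, rose from 9.52 and 10.5 CPM to 29.8, 30.5 and 39.7 CPM (log2 fold-change 1.68, limma, adjusted *p* = 0.0029). *Chst12*, which encodes another 4-O-sulphotransferase, fell from 87.8 and 110.1 CPM to 57.2, 57.2 and 51.6 CPM (log2 fold-change -0.83, limma, adjusted *p* = 0.00859), and quantile normalization gave it an adjusted *p* of 0.019, centring by sample medians one of 0.0145. *Chst3*, for a chondroitin 6-O-sulphotransferase, was at 9.20 and 6.74 CPM in CAF-vec and at 3.88, 3.78 and 3.90 CPM in CAF-200 (log2 fold-change -0.94, limma, adjusted *p* = 0.0095, or 0.0117 with quantile normalization). The other 4-O-sulphotransferase genes of the list did not reach an adjusted *p* of 0.01 and were named after their values were seen. The log2 fold-change was -0.019 for *Chst14* (limma, adjusted *p* = 0.902) and 0.84 for *Chst13* (limma, adjusted *p* = 0.019). For *Chst13* it ranged from 0.54 to 1.57 over the alternatives. *Chst13* was at 0.165 and 0.159 CPM in CAF-vec and at 0.721, 0.811 and 0.535 CPM in CAF-200. It thus entered the test only through CAF-200, where it was higher. *Csgalnact1*, which starts the chondroitin chain and was named after its value was seen, had a log2 fold-change of 0.62 (limma, adjusted *p* = 0.00842).

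Of 12 chondroitin sulphate proteoglycans and partners of PTPRZ, 6 were tested, and 2 were lower and 2 higher at an adjusted *p* under 0.05, against 18.6% and 11.9% of all genes tested. *Vcan*, for versican, a chondroitin sulphate proteoglycan of the matrix, was at 8.35 and 11.7 CPM in CAF-vec and at 34.4, 35.0 and 35.6 CPM in CAF-200. It was 3.49 times as high in CAF-200 by the means (log2 fold-change 1.77, standard error 0.15, limma, adjusted *p* = 0.0028). *Agrn*, for the heparan sulphate proteoglycan agrin, was lower, at 36.1 and 33.4 CPM in CAF-vec and 21.9, 23.6 and 20.5 CPM in CAF-200 (log2 fold-change -0.65, limma, adjusted *p* = 0.00891), and its adjusted *p* was 0.0123 after quantile normalization and 0.0121 after centring. The other 2 of these 4 genes encode cell adhesion molecules of the L1 family and were named after their values were seen. *Nrcam* was at 0.324 and 0.319 CPM in CAF-vec and at 1.07, 1.10 and 1.75 CPM in CAF-200 (log2 fold-change 1.12, limma, adjusted *p* = 0.0142). *L1cam* was at 0.891 and 1.05 CPM in CAF-vec and at 0.142, 0.223 and 0.470 CPM in CAF-200 (log2 fold-change -0.94, limma, adjusted *p* = 0.0281), and it overlaps *Arhgap4* on the same strand. Both were low throughout. *Nrcam* reached 0.5 CPM only in CAF-200 and *L1cam* only in CAF-vec. Each thus entered the test only through the group where it was higher. With 1 CAF-200 sample left out their adjusted *p* ranged from 0.0451 to 0.0983 (limma). The proteoglycan genes *Acan*, *Bcan* and *Ncan* and the contactin gene *Cntn1* were each at most 0.281 CPM in every sample. *Tnc*, for tenascin C, had a log2 fold-change of 0.042 (limma, adjusted *p* = 0.811).

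**Figure D5:**
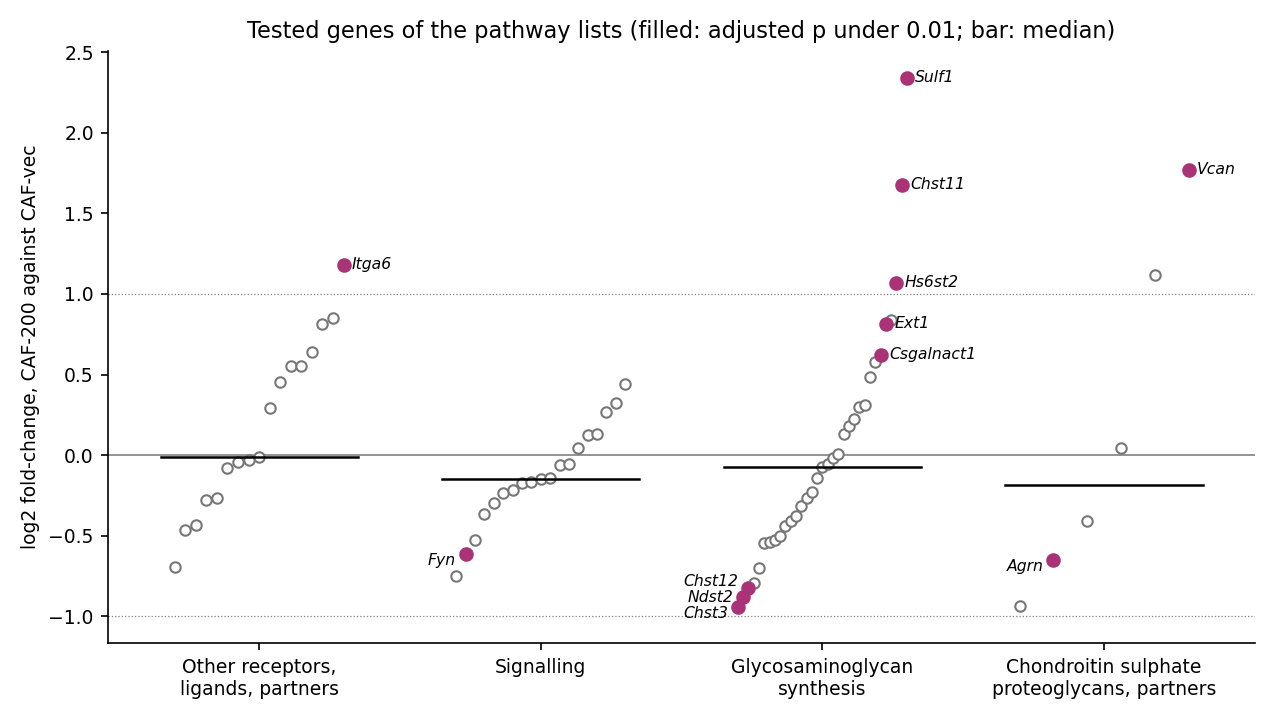
log2 fold-change (CAF-200 against CAF-vec) of the 75 tested genes in the 4 lists, ordered within each list; filled symbols passed an adjusted *p* of 0.01 in limma and are named, open symbols did not, bars are list medians and dotted lines mark a log2 fold-change of -1 and 1. The genes past both thresholds, *Itga6*, *Sulf1*, *Chst11*, *Hs6st2* and *Vcan*, are all higher in CAF-200. Of all genes tested, 2.35% were lower and 2.37% higher by that rule. The list medians lie between -0.18 and -0.013 on this scale, those of the receptor and glycosaminoglycan lists turning positive under both other scalings.

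The 12 list genes at an adjusted *p* under 0.01 were also searched for the heptamers in the longest 3′-UTR, beside 30.3% of tested genes with at least 1 of them. Among the 7 that were higher, *Sulf1* had 1 CAGTATT, *Csgalnact1* had 1 CAGTATT, *Hs6st2* had 3 CAGTGTT, *Ext1* and *Vcan* had 1 CAGTGTT each, and *Itga6* and *Chst11* had 0. Among the 5 that were lower, none of which passed the fold-change threshold (*Fyn*, *Ndst2*, *Chst3*, *Chst12* and *Agrn*), 0 had either. The 3′-UTRs searched differed in length. They were 1310 to 4626 bases long for the higher genes, and 551 to 1409 for the lower genes except *Chst3* (4073). The median over tested genes with a 3′-UTR was 1174 bases, and the counts were not adjusted for length. Of the 19 list genes with an adjusted *p* from 0.01 to 0.05, 2 of the 10 that were lower (*Lrp6* and *Ndst1*) and 4 of the 9 that were higher (*Sdc2*, *Hs2st1*, *Chst15* and *Nrcam*) had at least 1 of the heptamers. *Zeb1* and *Zeb2*, searched in the same way, each had 5 CAGTATT and 4 CAGTGTT.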

How the data were processed

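Stranded mRNA libraries of 2 CAF-vec and 3 CAF-200 samples were sequenced in pairs of reads. Per the labels, the submitters' processing notes name FastQC, cutadapt, Trimmomatic, STAR, RSEM and edgeR and the builds GRCm38 and mm10, without versions, and the strand setting of the counting is not given in the sources used here. The authors deposited 1 table of normalized CPM values, whose name refers to TMM (trimmed mean of M values), with columns summing to 999956 to 1000111. Whole reads could not be recovered, so no count test was run and the depth per sample is unknown. 0 sample columns were left unused. The labels and the methods name different extraction kits and vectors, and the methods describe triplicates.

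Genes were kept when 2 or more samples reached 0.5 CPM. The log2(CPM + 0.5) values entered limma 3.58.1 (R 4.3.3), by lmFit and eBayes with trend and with group as the only term. Calls needed an adjusted *p* under 0.01 (Benjamini-Hochberg, 12175 genes) and a log2 fold-change beyond 1, as in the study. On simulated data with 200 changed genes among 12175, a median of 84.5% were recovered over 20 runs, with at most 1 false call. These values describe the simulated data only, and the share recovered in the measured data was not tested. The *Ptn* to *Mdk* ratio was compared by an exact permutation test. Symbols (21795 of 21835 genes) came from a name table by Ensembl identifier, coordinates, exons and 3′-UTRs from GENCODE M21 (GRCm38), and mature miRs from RefSeq. Tables were handled in Python 3.11.15 (numpy 2.4.6, pandas 2.3.3), permutations run with SciPy 1.17.1 and figures drawn with matplotlib 3.10.9.

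Members and lists were chosen with earlier results of these data known. Named were all members, the genes of each list past both thresholds plus up to 4 more with the largest fold-change at an adjusted *p* under 0.01, the 5 genes nearest to *Ptn* and *Mdk*, and *Zeb1* and *Zeb2*. Others are marked as named after their values were seen, or are given as examples of list members at or near 0 or without a change past the threshold. Alternatives were other pseudocounts, filters, scalings and thresholds, no variance trend, each sample left out, and the replicate number as a block.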

Additional observations from a re-analysis of the deposited data

How the results depend on the processing

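*Ptn* was lower past both thresholds under every alternative except leaving out a CAF-200 sample (log2 fold-change -3.05 to -2.69, adjusted *p* 2.47e-06 to 0.0155, limma). With each sample left out in turn, the members called lower numbered 0 to 1, the list genes called lower 0 to 6 and higher 0 to 6, and all genes called lower 0 to 906 and higher 0 to 624. The 6 lower list genes were called without CAF-vec 2. With a lone CAF-vec sample, limma takes the spread from CAF-200 alone. *Ncl* turned to -0.12 without CAF-vec 2 (up to 0.68 without CAF-vec 1), and *Zeb2* to 0.083 without CAF-vec 1 (down to -0.54 without CAF-vec 2). The list genes called lower went from 0 to 1 with a pseudocount of 0.1 and to 5 with a fold-change beyond 0.5, and those called higher from 5 to 3 with no filter on low values, without *Itga6* and *Hs6st2*. All genes called lower went from 286 to 436 at an adjusted *p* under 0.05 and to 677 with a fold-change beyond 0.5, where 541 were higher, against 289. Centring on each sample's median shifted the median of all genes from -0.094 to 0.0027 and the share of calls that were lower from 49.7% to 38.4%.

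The samples of a group share numbers 1 and 2 with the other group, and nothing in the labels pairs them. Deviations from the group means correlated by 0.25 for number 1 and 0.13 for number 2. With the replicate number as a block, into whose fold-change CAF-200 3 does not enter, 70 genes were lower and 101 higher, of which 68 and 99 were also called without it, and 3 list genes were higher (*Sulf1*, *Chst11* and *Vcan*), while the other 9 list genes had an adjusted *p* of 0.0241 to 0.062 and *Ptprs* of 0.0851. The 19 list genes with an adjusted *p* from 0.01 to 0.05 had 0.0349 to 0.24 with the block. *Nrcam* and *L1cam* were still under 0.05, but each had entered the test only through the group where it was higher. The fold-change of *Ptn* was then -2.81 on the log2 scale (limma, adjusted *p* = 0.00279) and the log2 ratio of *Ptn* to *Mdk* differed by -3.01. Low values such as those of *Mdk* are limited by an unknown depth.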
